A study of Mus musculus with 12 samples.

Results

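The guanylate-binding proteins (GBPs) and immunity-related GTPases (IRGs) are GTPase families that cells make in response to interferons, chiefly interferon gamma. They are described here in developing and mature CD8aa lineage T cells of the mouse by 10 genes: Gbp2, Gbp3, Gbp4, Gbp5, Gbp6, Gbp7, Gbp9, Igtp, Irgm1 and Iigp1. The genes were taken by name from the deposited table of normalised expression, and all 10 had a row among its 26629 gene rows. In the textbook account, interferon gamma binds a receptor made of Ifngr1 and Ifngr2, and signalling through the kinases Jak1 and Jak2 leads to binding at sites called GAS in the promoters of Irf1 and other targets. Irf1 and the type I interferon complex ISGF3 bind a second kind of site, the ISRE. The proteins gather on vacuoles that hold intracellular pathogens such as Toxoplasma and help to break them open. How much interferon signal the cells had received was not measured here.

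The study sequenced RNA of 40000 sorted cells in each of 12 libraries, 3 in each of 4 groups of C57BL/6 mice that all carried floxed alleles of Lrf (gene symbol Zbtb7a), which encodes a zinc-finger transcription factor. KO spleen CD8aa cells and control CD8aa IELs were sorted as CD45+TCRb+CD4-CD8a+CD8b- cells, the KO cells from spleens of Cd4 Cre+ Lrf fl/fl mice and the intraepithelial lymphocytes (IELs) from Cd4 Cre- Lrf fl/fl mice. KO IELps and control IELps, the thymic precursors of CD8aa IELs, were sorted from the thymus as TCRb+CD4-CD8a- cells that were also CD5hi, CD122+, H-2Kb+, CD44- and PD-1hi, from Cd4 Cre+ Lrf fl/fl and Cd4 Cre- Lrf fl/fl mice. Cre driven by Cd4 elements acts from the CD4+CD8+ thymocyte stage on, in all later alpha-beta T cells, so a difference between KO and control precursors need not arise in the precursors themselves. KO and control CD8aa cells also differed in tissue, so genotype and tissue cannot be told apart between them. The labels give neither the age nor the sex of the mice.

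Total counts over genes lay between 13432598 and 19947734 per library. Zbtb7a itself had 42 to 50.8 FPM (the authors' normalised unit, a gene's counts scaled to a common total over genes) in KO IELps against 68.5 to 80.7 FPM in control IELps, and 59.1 to 63.4 FPM in KO spleen cells against 101 to 119 FPM in control IELs. Messenger RNA of the whole gene is counted here, so residual counts do not measure protein. Markers of the sorts were checked: Cd8b1 averaged 3.54 ± 0.959 FPM in KO spleen cells and 0.278 ± 0.25 FPM in control IELs (SD, n = 3 each), beside 838 ± 48.7 and 2508 ± 158 FPM of Cd8a. Pdcd1 averaged 1549 ± 70.7 FPM in KO IELps and 1507 ± 70.3 FPM in control IELps (SD, n = 3 each). Both lineage genes of the precursor sort differed between genotypes at low levels: Cd8a averaged 46.5 ± 3.06 FPM in KO IELps and 18.7 ± 1.36 FPM in control IELps (edgeR log2 fold change 1.34 ± 0.10, adjusted p = 6.28e-07), and Cd4 averaged 1.99 ± 0.575 and 7.42 ± 2.16 FPM (-1.86 ± 0.28, adjusted p = 4.13e-04). Their part in the differences between KO and control precursors was not tested. One precursor library stood apart for the genes described here: replicate 3 of control IELps was below its group mean for 9 of the 10 genes, with a mean log2 deviation of -0.21. The labels do not say whether replicates came from separate mice, so a p-value here reflects the spread among libraries, which may be technical only.

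The promoter letters of the family come first, as a search for the letters of the GAS and ISRE sites named above. RefSeq promoters (GRCm38.p6, the mm10 genome; 250 bases before to 50 after a gene's start) were matched by symbol to 6 of the 10 genes, with 7 promoters in all, since Gbp3 has more than one start. Both strands were searched for the core letters of each site: for the ISRE, GAAA and a second GAAA with 2 free bases between them, and for the GAS, TTC and GAA with 3 free bases between them. An ISRE match lay in 6 of the 7 promoters, against 3.44% of 32851 RefSeq promoters. A GAS match lay in 3 of the 7, those of Gbp5, Gbp7 and Igtp, against 8.3% of all promoters, and each of those 3 also held an ISRE match, against 0.454% of all promoters with both. The second Gbp3 start held neither. A letter match is not evidence that a factor binds there.

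Stretches of 30 bases that hold the ISRE matches of 4 of the genes are printed so that the spacing can be read, 5′ to 3′ on the gene's own strand, with the matched letters in capitals. Gbp2, Gbp3 and Gbp5 lie on the + strand of chromosome 3 and show the ISRE letters of the opposite strand, where GAAA reads as TTTC. In Gbp3 and Irgm1 the capitals run on because a second ISRE match overlaps the first.
Gbp2: tttagTTTCACTTTCactgtcttaagcata
Gbp3: cacagTTTCAGTTTCTATTTCccagatccc
Gbp5: tgtagTTTCAATTTCagtttagagaaccct
Irgm1: ttcaaGAAATAGAAACCGAAActgattctc
These stretches are chr3:142620599-142620628, chr3:142559994-142560023 and chr3:142496764-142496793 on the + strand and chr11:48871426-48871455 on the - strand.

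In Igtp the GAS match is followed by 2 bases and then by the ISRE match, so that both sites fit within the printed 30 bases. That arrangement occurred in 5 of 32851 promoters, or 0.0152%, and 4 of those 5 belong to IRG genes of chromosome 11: Igtp and 3 close relatives, Irgm2, Tgtp1 and Tgtp2. The stretches of Igtp and Irgm2 are nearly the same, as are those of Tgtp1 and Tgtp2, so the 4 are not independent occurrences.
Igtp: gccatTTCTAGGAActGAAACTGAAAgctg
Irgm2: gccatTTCCAGGAActGAAACTGAAAgctg
Tgtp1: gccatTTCCAGGAAtcGAAACTGAAAccta
Tgtp2: gccatTTCCAGGAAtcGAAACCGAAAccta
These lie at chr11:58199506-58199535 and chr11:58214897-58214926 on the + strand and at chr11:48992310-48992339 and chr11:49064269-49064298 on the - strand.

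The 250 bases before the start of Gbp7 and Igtp are given in full as the GBP and IRG examples with both kinds of match. Gbp7 (chr3:142530086-142530335, + strand) holds 2 GAS matches and then an ISRE match that begins 53 bases before the start. Igtp (chr11:58199306-58199555, + strand) holds the joined GAS and ISRE matches, and its ISRE match begins 34 bases before the start.
Gbp7: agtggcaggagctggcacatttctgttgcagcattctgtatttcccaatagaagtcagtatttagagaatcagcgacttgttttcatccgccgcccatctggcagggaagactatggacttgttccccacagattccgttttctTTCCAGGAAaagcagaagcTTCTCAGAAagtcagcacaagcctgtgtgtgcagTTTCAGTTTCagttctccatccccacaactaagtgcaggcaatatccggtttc
Igtp: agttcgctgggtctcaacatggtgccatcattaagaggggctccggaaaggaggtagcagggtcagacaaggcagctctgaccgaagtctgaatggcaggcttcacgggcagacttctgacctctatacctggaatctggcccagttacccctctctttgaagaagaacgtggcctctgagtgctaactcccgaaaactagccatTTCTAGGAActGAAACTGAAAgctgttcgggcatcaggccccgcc

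**Figure D1:**
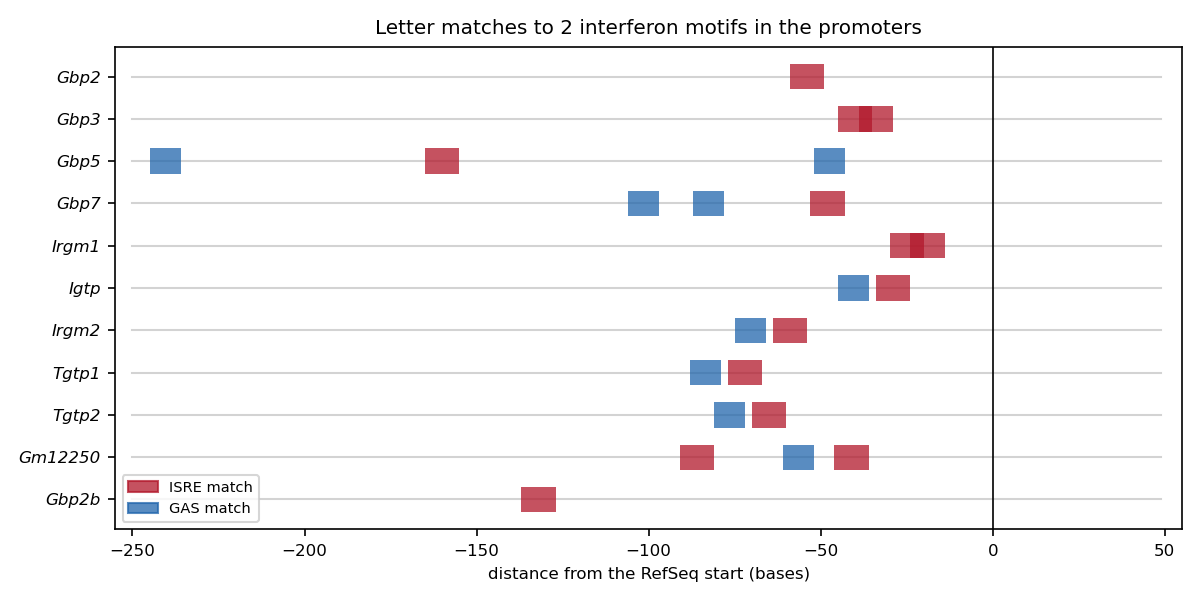
Positions of ISRE (red) and GAS (blue) letter matches in the RefSeq promoters of GBP and IRG genes that hold a match, in bases from the gene's start (vertical line at 0). The outermost ISRE matches of Gbp2, Gbp3, Gbp7, Irgm1 and Igtp begin between 59 and 30 bases before the start, and Gbp5 has its ISRE match farther out, at 165 bases.

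The genes lie in clusters. In the mm10 build with GENCODE M21 gene models, Gbp5 (142493978 to 142522344), Gbp7 (142530342 to 142550149), Gbp3 (142560026 to 142573209) and Gbp2 (142620602 to 142638008) stand in a row on the + strand of chromosome 3. Gbp9 (105077630 to 105139539), Gbp4 (105115767 to 105139586) and Gbp6 (105270702 to 105293698) lie on the - strand of chromosome 5, where the Gbp9 and Gbp4 models overlap. Irgm1 (48861968 to 48871683, - strand) and Igtp (58199556 to 58207591, + strand) are on chromosome 11, and Iigp1 is on chromosome 18. All 10 are protein-coding, and the counts are sums over each gene's exons.

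Copies within the clusters limit some of the counts. Of the 76-base windows of Gbp6 transcripts, 67.2% also occur in another gene, mostly in the overlapping model Gm43302, which was counted at 0 in all libraries. The shares were 11.2% for Gbp7, 7.66% for Igtp (shared with Irgm2), at most 3.47% for Gbp9, Gbp4, Gbp3, Gbp2 and Gbp5, and 0 for Irgm1 and Iigp1. Reads from shared stretches could have been split or dropped by the authors' counting, so Gbp6 is reported as uncertain.

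To compare genes, levels were set per kilobase of exon. The length was that of all annotated exons of a gene together, 2022 bases for Igtp and 7494 for Gbp4. The ranking therefore depends on the gene models. On this scale Igtp (also called Irgm3), an IRG that regulates the others, had the highest mean level of the 10 genes in each group. It had 56.6 ± 5.81 FPM per kb in KO spleen cells, 54.2 ± 7.81 in control IELs, 39.3 ± 2.11 in KO IELps and 52.6 ± 5.59 in control IELps (SD, n = 3 each). Gbp9 followed with 44.7 ± 2.19 FPM per kb in KO spleen cells, 48.6 ± 4.83 in control IELs, 26.4 ± 1.76 in KO IELps and 31 ± 3.23 in control IELps. Gbp5, an inflammasome-linked member, was among the low ones with means of 1.7 to 5.06 FPM per kb, and Iigp1, an effector that is loaded onto the vacuole, was lowest with means of 0.0525 to 0.236 FPM per kb. Summed over the 10 genes, each library held 1005.4 to 1058.6 FPM in KO spleen cells, 1179.6 to 1191.0 in control IELs, 602.2 to 627.9 in KO IELps and 669.1 to 772.1 in control IELps. None of these ranges overlapped, and KO IELps held the least.

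**Figure D2:**
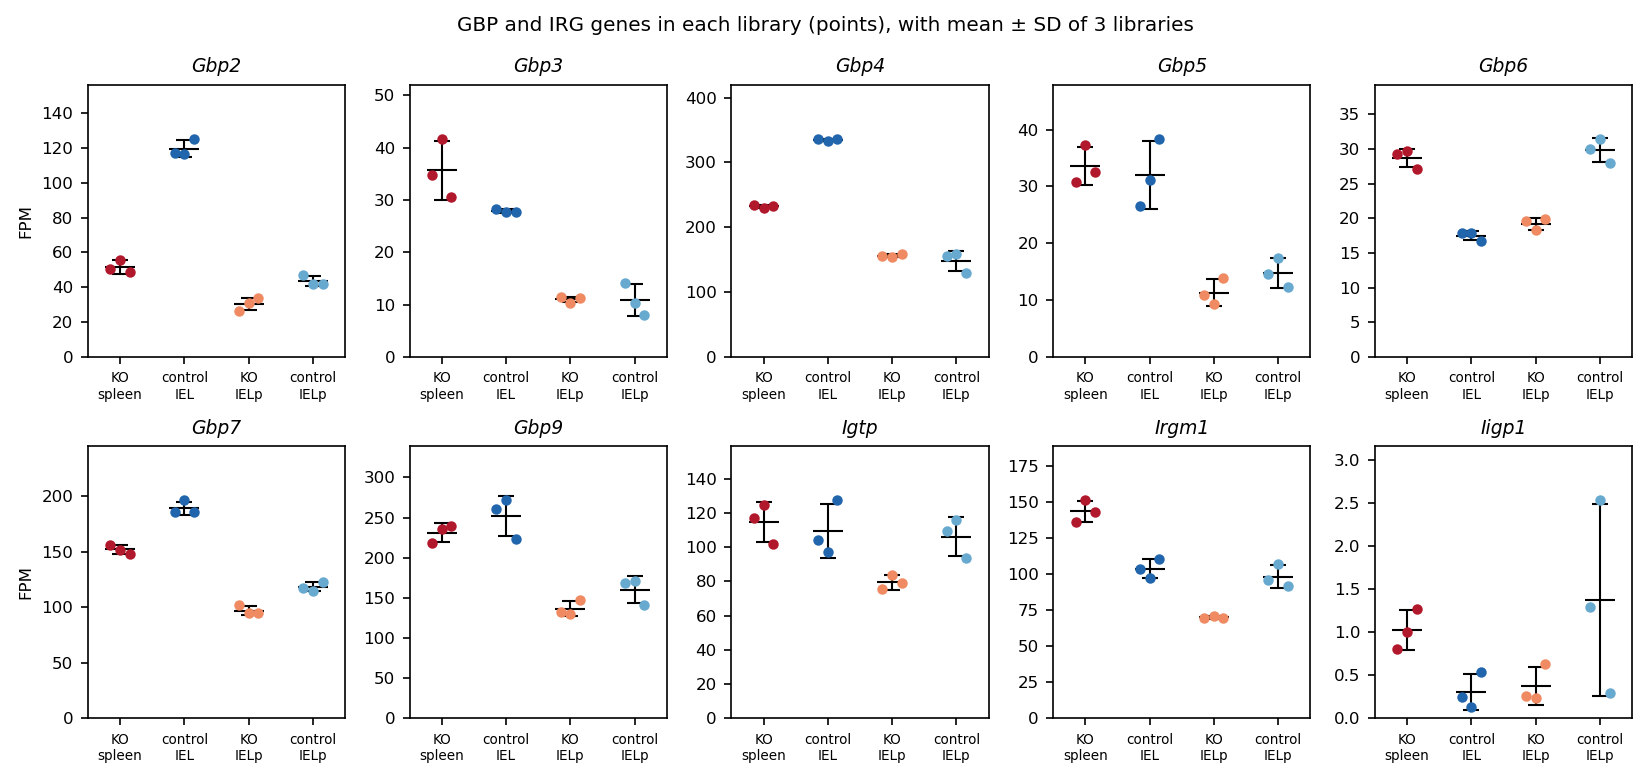
FPM of the 10 genes in each library (points) with mean and SD of 3 libraries, in KO spleen CD8aa cells, control CD8aa IELs, KO IELps and control IELps. Gbp2 and Gbp4 peak in control IELs, Irgm1 peaks in KO spleen cells, and Gbp6 is high in KO spleen cells and control IELps. Iigp1 stays at or below 2.53 FPM.

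In LRF KO precursors the IRG regulators Irgm1 and Igtp and part of the GBPs were lower than in control precursors, by modest amounts. In KO IELps over control IELps, 5 of the 10 genes fell (Gbp2, Gbp6, Gbp7, Igtp and Irgm1) and 0 rose. Of the 14629 genes tested, 6.58% fell and 6.48% rose. The median log2 fold change was -0.38 over the 10 genes and -0.01 over all genes tested. Calls are from edgeR's quasi-likelihood test at a Benjamini-Hochberg adjusted p under 0.05 over all genes tested. The count of genes that rose was 0 also at an unadjusted p under 0.05, with DESeq2 and with limma, all on the same libraries. With 6.48% of all genes rising, a count of 0 among 10 genes lies near that share. The same share applies to the short gene lists below in this comparison. In bulk libraries a smaller share of cells that express a gene and less RNA of it per cell cannot be told apart.

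Irgm1, which keeps effector IRGs off the cell's own membranes in the mouse, had 69.8, 71.1 and 69.5 FPM in KO IELps, against 95.9, 107 and 91.7 FPM in control IELps. All KO libraries were below all control libraries, and the KO libraries lay close together. The log2 fold change was -0.47 ± 0.08 (SE; edgeR adjusted p = 8.99e-04). Igtp, its relative in the same regulatory role, had 75.4, 83.9 and 79.0 FPM in KO IELps against 109, 116 and 93.8 FPM in control IELps, again without overlap, with a log2 fold change of -0.40 ± 0.08 (adjusted p = 0.00554).

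Gbp2, a GBP recruited to parasite vacuoles, had 26.3, 31.1 and 33.5 FPM in KO IELps against 46.7, 42.1 and 41.7 FPM in control IELps. The groups did not overlap, and the log2 fold change was -0.49 ± 0.11 (edgeR adjusted p = 0.00655). Gbp7 fell least of the 5, with 102, 94.6 and 94.3 FPM in KO IELps against 117, 115 and 123 FPM in control IELps. Its log2 fold change of -0.27 ± 0.07 had an adjusted p of 0.0167 and missed the threshold when replicate 2 or 3 of KO IELps was left out (0.0744 and 0.0741). Gbp6, whose counts are uncertain, had 19.6, 18.2 and 19.8 FPM in KO IELps against 29.95, 31.5 and 28.0 FPM in control IELps, with a log2 fold change of -0.61 ± 0.11 (adjusted p = 0.00134).

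The other 5 genes did not pass the test. Gbp4 had 156, 153 and 159 FPM in KO IELps against 155, 159 and 130 FPM in control IELps, a log2 fold change of 0.10 ± 0.07 (edgeR adjusted p = 0.438). The KO and control libraries overlapped. Gbp3 had 11.4, 10.4 and 11.2 FPM in KO IELps against 14.1, 10.3 and 8.03 FPM in control IELps, a log2 fold change of 0.04 ± 0.18 (adjusted p = 0.922).
Gbp5 and Gbp9 had lower means in KO IELps with overlapping libraries. Gbp5 averaged 11.3 ± 2.34 FPM in KO IELps and 14.8 ± 2.59 FPM in control IELps (adjusted p = 0.199 by edgeR). Gbp9 had 133, 130 and 147 FPM in KO IELps against 168, 172 and 141 FPM in control IELps, a log2 fold change of -0.21 ± 0.08 (adjusted p = 0.101). Without replicate 3 of control IELps, the low control library, Gbp9 passed the test (-0.29, adjusted p = 0.011). Iigp1 had 4, 4 and 12 counts in KO IELps against 19, 43 and 4 counts in control IELps, with a log2 fold change of -1.81 ± 0.65 (adjusted p = 0.0846). Iigp1 too passed without that library (-2.26, adjusted p = 0.0151), and 7 of the 10 genes then fell. That library was singled out because these same genes were low in it, so leaving it out favours falls in KO IELps. Over all runs with 1 library left out, 4 to 7 of the 10 genes fell.

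**Figure D3:**
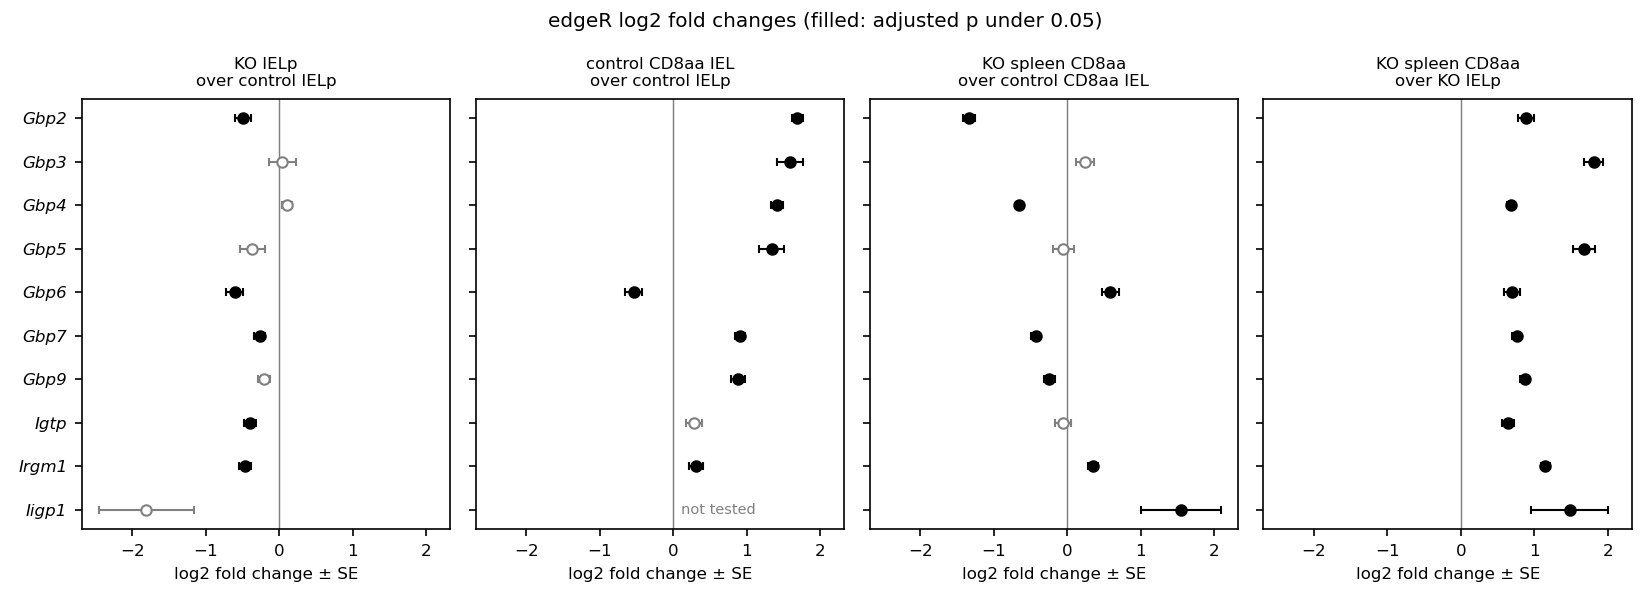
Log2 fold changes with SE from edgeR for the 10 genes in the 4 comparisons, filled where the adjusted p was under 0.05. In KO IELps over control IELps filled points lie between -0.61 and -0.27, and in KO spleen cells over KO IELps all 10 lie between 0.64 and 1.81.

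Control CD8aa IELs, the mature gut cells, held more of most GBPs than control IELps. Of the 9 genes tested, 7 rose (Gbp2, Gbp3, Gbp4, Gbp5, Gbp7, Gbp9 and Irgm1) and 1 fell (Gbp6). In this comparison 31.9% of the 14878 genes tested rose and 32.9% fell, and the median log2 fold change was 0.91 over the 9 genes and -0.01 over all genes. Iigp1, with 4, 2 and 10 counts in control IELs against 19, 43 and 4 in control IELps, did not pass the filter on low counts. The titles number replicates alike in all groups, but the description field gives sample numbers to the IELp libraries alone, so any difference in how these sets were prepared and the difference in stage and tissue cannot be told apart. The comparisons of IELs and of spleen cells also share groups with each other and with that of the precursors, and are not independent.

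The largest difference was in Gbp2, with 117, 116 and 125 FPM in control IELs against 46.7, 42.1 and 41.7 FPM in control IELps. Its log2 fold change was 1.69 ± 0.08 (edgeR adjusted p = 2.07e-08). Gbp4, the member with the highest mean FPM over the 12 libraries, had 336, 333 and 336 FPM in control IELs against 155, 159 and 130 FPM in control IELps, a log2 fold change of 1.41 ± 0.08 (adjusted p = 7.92e-08). For both genes every IEL library was well above every precursor library.

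Gbp3 had 28.3, 27.7 and 27.7 FPM in control IELs against 14.1, 10.3 and 8.03 FPM in control IELps (log2 fold change 1.59 ± 0.18). Gbp5 had 26.5, 31.1 and 38.4 FPM in control IELs against 14.6, 17.5 and 12.3 FPM in control IELps (1.34 ± 0.17). Neither gene overlapped between the groups. Gbp7 had 186, 196 and 185 FPM in control IELs against 117, 115 and 123 FPM in control IELps (0.91 ± 0.07), and Gbp9 averaged 252 ± 25 FPM in control IELs and 160 ± 16.7 FPM in control IELps (0.88 ± 0.10). The edgeR adjusted p-values of these genes were 1.65e-05, 4.28e-05, 6.28e-07 and 1.40e-05, in the order given.

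The IRGs differed less. Irgm1 had 104, 97.3 and 111 FPM in control IELs against 95.9, 107 and 91.7 FPM in control IELps, with overlapping libraries. It was called higher by edgeR (log2 fold change 0.31 ± 0.09, adjusted p = 0.00839), but with limma on unscaled log2(FPM + 1) the value was 0.08 (adjusted p = 0.424). Igtp had 105, 97.0 and 127 FPM in control IELs against 109, 116 and 93.8 FPM in control IELps, a log2 fold change of 0.28 ± 0.11 that lay at the threshold (adjusted p = 0.0504) and was 0.04 with limma on log2(FPM + 1). Without TMM scaling the median of all genes shifted by -0.2 in this comparison, so these small values depend on the scaling. Gbp6 went the other way from the other GBPs named at the start. It had 17.9, 17.8 and 16.7 FPM in control IELs against 29.95, 31.5 and 28.0 FPM in control IELps (-0.54 ± 0.11, adjusted p = 0.00137). Gbp10, which also shares most of its sequence windows with Gm43302, fell too (-0.89 ± 0.35, edgeR adjusted p = 0.0415).

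Summed lists of markers of other cells were higher in the gut libraries, but a few genes made up most of each sum. The 13 gut epithelial markers summed to 520 to 723 FPM in control IELs against 67 to 75.6 FPM in control IELps, mostly Cdh1 and Epcam, and all 13 had counts in control IELs. Cdh1 had 369, 421 and 400 FPM in replicates 1, 2 and 3 of control IELs, and did not follow Krt8 and Reg3b, given below. The 15 macrophage and dendritic cell markers summed to 260 to 379 FPM in control IELs against 22.7 to 29 FPM in control IELps, mostly Itgax, with Adgre1, C1qa and C1qb at 0 in control IELs. Whether the IELs themselves were the source of Cdh1 and Itgax was not tested, so these sums do not measure other cells. The 7 B cell markers summed to 40.3 to 67.8 FPM in control IELs against 22.8 to 23.2 FPM in control IELps, with Ms4a1 and Pax5 among those at 0 in control IELs. Replicate 3 of control IELs stood apart in the epithelial list, with 1.35, 1.54 and 22.6 FPM of Krt8 and 1.54, 1.35 and 17.3 FPM of Reg3b in replicates 1, 2 and 3 of control IELs, and it was also the highest IEL library for Gbp5 and Igtp. Without it the log2 fold change of control IELs over control IELps was 1.19 for Gbp5 (edgeR adjusted p = 1.76e-05) and 0.16 for Igtp (adjusted p = 0.16), and 7 of the 10 genes rose and 2 fell. The part of any epithelial cells in the GBP levels was not tested.

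KO spleen CD8aa cells, which share a surface phenotype with IELs but were sorted from the spleens of LRF KO mice, held less of some GBPs and more of other members than control IELs. Of the 10 genes, 3 rose (Gbp6, Irgm1 and Iigp1) and 4 fell (Gbp2, Gbp4, Gbp7 and Gbp9). Of the 14875 genes tested 29.1% rose and 29.2% fell, so the counts among the 10 lay near the shares of all genes. The median log2 fold change was -0.05 over the 10 genes and 0.00 over all genes.

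Gbp2 again differed most among the well-counted members. It had 50.3, 55.9 and 48.5 FPM in KO spleen cells against 117, 116 and 125 FPM in control IELs, a log2 fold change of -1.33 ± 0.08 (edgeR adjusted p = 4.16e-07). Gbp4 had 235, 230 and 232 FPM in KO spleen cells against 336, 333 and 336 FPM in control IELs (-0.65 ± 0.05, adjusted p = 3.37e-06). Gbp7 had 156, 152 and 148 FPM in KO spleen cells against 186, 196 and 185 FPM in control IELs (-0.43 ± 0.06, adjusted p = 1.97e-04). For these 3 genes the groups did not overlap. Gbp9, with 218, 236 and 239 FPM in KO spleen cells against 260, 271 and 223 FPM in control IELs, overlapped and was called narrowly (-0.24 ± 0.08, adjusted p = 0.0259). That call was lost when any library other than replicate 3 of control IELs was left out (adjusted p 0.0559 to 0.102).

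Irgm1 had 136, 151 and 144 FPM in KO spleen cells against 104, 97.3 and 111 FPM in control IELs, without overlap (0.35 ± 0.07, edgeR adjusted p = 0.00254). Gbp6 had 29.2, 29.7 and 27.2 FPM in KO spleen cells against 17.9, 17.8 and 16.7 FPM in control IELs, also without overlap (0.59 ± 0.11, adjusted p = 7.88e-04). Iigp1 had 16, 19 and 17 counts in KO spleen cells against 4, 2 and 10 counts in control IELs (1.55 ± 0.55, adjusted p = 0.0341). The Iigp1 call was lost when any single library other than replicate 3 of control IELs was left out (adjusted p 0.0528 to 0.141). Gbp3, Gbp5 and Igtp did not pass the test. Their means were 35.6 ± 5.63, 33.6 ± 3.30 and 115 ± 11.8 FPM in KO spleen cells, against 27.9 ± 0.369, 32.0 ± 5.99 and 110 ± 15.8 FPM in control IELs (SD, n = 3 each).

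Against KO IELps, KO spleen CD8aa cells were higher for every one of the 10 genes. As in the control comparison, any difference in how the IELp and CD8aa sets were prepared cannot be told apart here from stage and tissue. All 10 passed the test, 9 of them also with DESeq2, which did not call Iigp1. None fell: the count was 0 with edgeR, also at an unadjusted p under 0.05, with DESeq2 and with limma. Of the 14880 genes tested 22.6% rose and 22.4% fell. The median log2 fold change was 0.87 over the 10 genes and 0.00 over all genes. The largest was Gbp3, with 34.7, 41.7 and 30.5 FPM in KO spleen cells against 11.4, 10.4 and 11.2 FPM in KO IELps (1.81 ± 0.13, edgeR adjusted p = 1.83e-07). Gbp5 had 30.8, 37.2 and 32.6 FPM in KO spleen cells against 10.8, 9.21 and 13.8 FPM in KO IELps (1.68 ± 0.15, adjusted p = 1.06e-06). Both genes had more than the highest KO IELp value in each spleen library.

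Irgm1 was next among the well-counted genes, with a log2 fold change of 1.15 ± 0.06 (edgeR adjusted p = 1.03e-08). The values of Gbp2, Gbp9, Gbp7, Gbp6, Gbp4 and Igtp were 0.88 ± 0.11, 0.87 ± 0.06, 0.76 ± 0.06, 0.69 ± 0.11, 0.68 ± 0.05 and 0.64 ± 0.08, and the KO spleen and KO IELp libraries of these genes did not overlap. Iigp1 had 16, 19 and 17 counts in KO spleen cells against 4, 4 and 12 counts in KO IELps (1.48 ± 0.52, adjusted p = 0.0346), and its call was lost without replicate 2 or 3 of KO spleen cells or replicate 1 or 2 of KO IELps (adjusted p 0.0718 to 0.15).

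The spleen libraries held other cells' markers. The 7 B cell markers summed to 181 to 221 FPM in KO spleen cells, against 40.3 to 67.8 FPM in control IELs and 17.8 to 21.8 FPM in KO IELps. Ms4a1 averaged 12.6 ± 0.973 FPM in KO spleen cells (SD, n = 3) and was at 0 in control IELs and KO IELps. The 15 macrophage and dendritic cell markers summed to 76.5 to 102 FPM in KO spleen cells, against 260 to 379 FPM in control IELs and 26.5 to 31.2 FPM in KO IELps, and Adgre1 averaged 2.48 ± 1 FPM in KO spleen cells against 0 in both of the other groups. The 13 gut epithelial markers summed to 13.8 to 17.2 FPM in KO spleen cells, against 520 to 723 FPM in control IELs and 67.1 to 69.1 FPM in KO IELps. B cells and macrophages also express GBPs, and their part in the spleen values was not tested. Between KO and control IELps the B cell sums were 17.8 to 21.8 against 22.8 to 23.2 FPM, with Ms4a1 at 0 in both groups, and the macrophage and dendritic cell sums overlapped.

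Whether the step between precursors and CD8aa cells itself differed between the KO arm (thymus to spleen) and the control arm (thymus to gut) was tested as an interaction over all 12 libraries. It differed for 5 of the 10 genes, with 3 higher in the KO arm and 2 lower, against 24.2% and 22.5% of the 15757 genes tested. These counts lay near the shares of all genes. Gbp2 and Gbp4 had the smaller step in the KO arm, by -0.84 ± 0.13 and -0.75 ± 0.09 on the log2 scale (edgeR adjusted p = 9.19e-05 and 6.68e-06). Irgm1 had the larger step in the KO arm, by 0.81 ± 0.11 (adjusted p = 1.21e-05), and Gbp6 differed by 1.21 ± 0.14 (adjusted p = 2.84e-06), since it was lower in control IELs than in control IELps but higher in KO spleen cells than in KO IELps. Iigp1 differed by 3.36 ± 0.98 (adjusted p = 0.0105), a call lost without replicate 2 of control IELps (2.58, adjusted p = 0.0555). Gbp3, Gbp5, Gbp7, Gbp9 and Igtp had differences of 0.20, 0.32, -0.17, -0.03 and 0.34, none past the threshold.

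**Figure D4:**
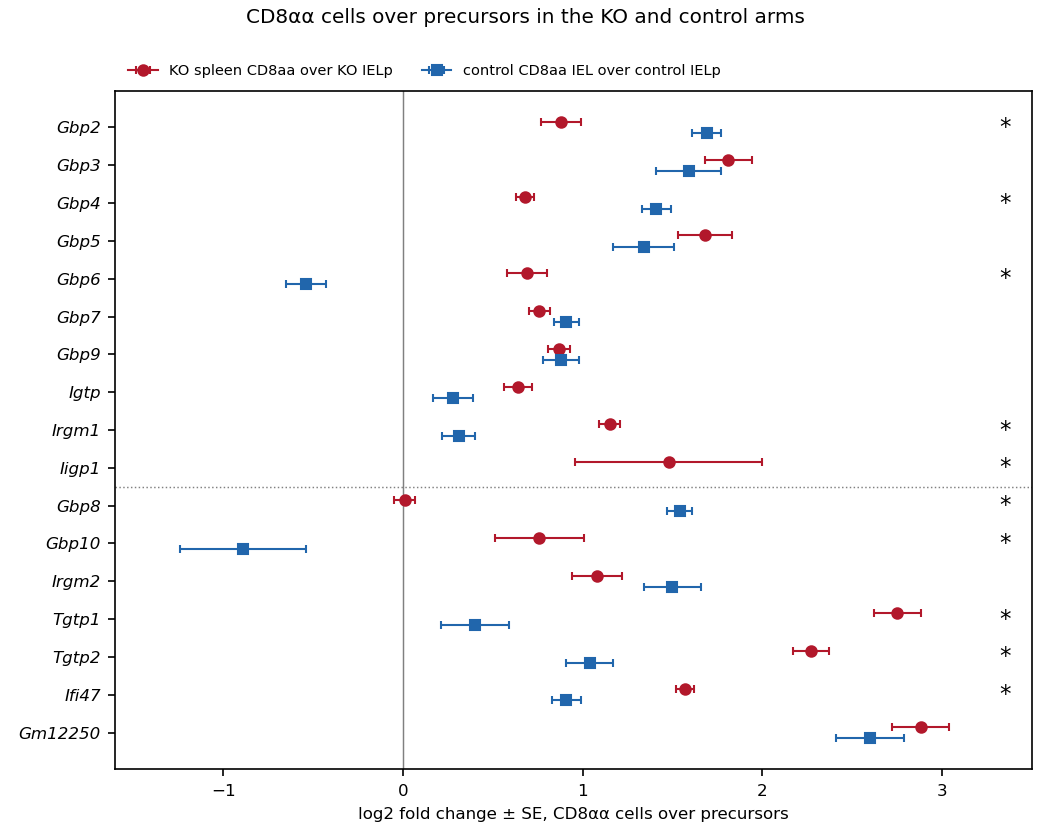
Log2 fold change with SE of CD8aa cells over precursors in the KO arm (red circles, KO spleen over KO IELp) and the control arm (blue squares, control IEL over control IELp) for the 10 genes and, below the dotted line, other GBP and IRG genes. An asterisk marks a difference between arms with adjusted p under 0.05, as for Gbp2 (-0.84), Gbp8 (-1.55) and Tgtp1 (2.32).

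The order of the 4 groups varied by gene. Gbp2 and Gbp7 ran from control IELs through KO spleen cells and control IELps down to KO IELps, with no overlap between any neighbours. Gbp4 ran from control IELs through KO spleen cells to KO IELps and control IELps, whose libraries overlapped. Irgm1 ran from KO spleen cells to control IELs, control IELps and KO IELps, where only control IELs and control IELps overlapped. In Igtp only KO IELps stood apart, below the other 3 groups. Gbp6 was highest in control IELps and KO spleen cells, which overlapped, followed by KO IELps and control IELs.

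Across the 12 libraries, 37 of the 45 pairs of the 10 genes had a positive Pearson correlation of log2(FPM + 1), with a median of 0.65 and a range of -0.43 to 0.94. These values describe 12 libraries in 4 groups that share stage and tissue, and genes at low counts add noise. Of 9790 other genes with a mean of at least 10 FPM, the 5 whose profile was most like the mean profile of the 10 were H2-Q7 (Pearson r = 0.987), Spin2c (0.984), Irf7 (0.982), H2-Q5 (0.980) and H2-Q6 (0.980), over 12 libraries. H2-Q7 averaged 591.9 ± 14.6 FPM in KO spleen cells, 564.3 ± 37.1 in control IELs, 79.19 ± 0.707 in KO IELps and 192.1 ± 38.8 in control IELps (SD, n = 3 each). Irf7, a transcription factor of the interferon response, averaged 128.8 ± 2.37, 127 ± 0.38, 59.63 ± 2.97 and 90.06 ± 8.81 FPM in the same groups. H2-Q5, H2-Q6 and H2-Q7 are near-copies in the Qa-2 region of the MHC, so reads may be split between them.

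Of 15 other genes of the GBP and IRG families, 11 were tested in KO IELps over control IELps, where 1 rose and 5 fell. Gbp8 rose in KO IELps, with 122, 123 and 134 FPM against 93.9, 97.7 and 103 FPM in control IELps (log2 fold change 0.39 ± 0.07, edgeR adjusted p = 0.00157), without overlap. It was the only one of the GBP and IRG genes tested that rose there. Tgtp2, a mouse IRG with a close copy in Tgtp1, had 16.8, 18.9 and 19.6 FPM in KO IELps against 38.7, 42.9 and 35.8 FPM in control IELps (-1.06 ± 0.11, adjusted p = 1.29e-05). Tgtp1 fell by 0.97 on the log2 scale, but 77.1% of its 76-base windows also occur in another gene and 81.2% of those of Tgtp2, so the pair is uncertain. Ifi47, an IRG with 151.5 ± 6.17 FPM in KO IELps against 195.6 ± 17.4 FPM in control IELps, fell (-0.35 ± 0.07, adjusted p = 0.00322), as did Gm12250, annotated as a processed pseudogene (-1.23 ± 0.19, adjusted p = 4.43e-04). Irgc1 had 0, 0 and 0 counts in KO IELps against 10, 11 and 9 counts in control IELps, too few for a fold change, and was called lower. Irgm2 (-0.38 ± 0.15, adjusted p = 0.132), Gbp10, Gbp11, Gvin1 and Irgq did not pass the test, and the other 4 had too few counts to be tested.

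In control IELs over control IELps 6 of these 11 tested genes rose and 2 fell, and in KO spleen cells over control IELs 3 of 10 rose and 4 fell. In KO spleen cells over KO IELps 7 of 10 rose and 1, Irgq, fell. Of all genes tested 31.9% rose and 32.9% fell in control IELs over control IELps. The shares were 29.1% and 29.2% in KO spleen cells over control IELs, and 22.6% and 22.4% in KO spleen cells over KO IELps. The family counts in KO spleen cells over control IELs lay near these shares. The same shares apply to the short gene lists below. Gbp8 rose to 240, 233 and 256 FPM in control IELs, against 93.9, 97.7 and 103 FPM in control IELps (1.54 ± 0.07, edgeR adjusted p = 1.32e-08). In KO spleen cells Gbp8 had 121, 116 and 117 FPM against 122, 123 and 134 FPM in KO IELps, a log2 fold change of 0.01 ± 0.06 (adjusted p = 0.93). Tgtp2 was higher in KO spleen cells than in KO IELps, with 89.2, 82.1 and 75.1 FPM against 16.8, 18.9 and 19.6 FPM (2.27 ± 0.10, adjusted p = 9.01e-10), and Ifi47 rose by 1.57 ± 0.05 in the same comparison.

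The receptor and signalling genes of interferon gamma were measured in the same libraries. Of 10 tested genes in KO IELps over control IELps, 2 rose (Jak1 and Ifngr1) and 2 fell, Ifngr2 among them. Ifngr1, the ligand-binding chain, averaged 319.1 ± 9.16 FPM in KO IELps and 279.3 ± 26.4 FPM in control IELps (SD, n = 3 each). Ifngr2, the signalling chain, averaged 30.7 ± 3.27 FPM in KO IELps and 47.6 ± 4.09 FPM in control IELps, a log2 fold change of -0.61 ± 0.11 (edgeR adjusted p = 0.00136).

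Both CD8aa groups held far less Ifngr2 than the precursors and more Ifngr1, Irf1 and Ifng. Ifngr2 averaged 2.31 ± 0.836 FPM in KO spleen cells and 1.18 ± 0.77 FPM in control IELs, and Ifngr1 averaged 1278 ± 17.6 and 907.5 ± 25.6 FPM there (SD, n = 3 each). Irf1 averaged 502.5 ± 19.8 FPM in KO spleen cells against 164.9 ± 5.31 in KO IELps, and 480 ± 6.65 FPM in control IELs against 194.4 ± 26.4 in control IELps. Ifng, the ligand, averaged 6.54 ± 0.453 FPM in KO spleen cells against 0.274 ± 0.239 in KO IELps, and 12.3 ± 0.605 FPM in control IELs against 0.233 ± 0.144 in control IELps. Over the whole list 8 of 11 genes rose and 2 fell in control IELs over control IELps, and 9 of 11 rose and 1 fell in KO spleen cells over KO IELps. In KO spleen cells over control IELs 3 rose and 5 fell. Ifngr2 and Ifng were picked for naming after their values were seen.

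Other known targets of interferon gamma, mainly genes of antigen presentation, were counted in the same way. In KO IELps over control IELps 8 of 14 tested fell and 0 rose (0 also at an unadjusted p under 0.05, with DESeq2 and with limma), among them Psmb8, an immunoproteasome subunit (-0.47 ± 0.06, edgeR adjusted p = 4.52e-05), and B2m, the MHC class I light chain (-0.31 ± 0.07, adjusted p = 0.00736). In control IELs over control IELps 15 of 16 rose and 1, Psmb8, fell (-0.35 ± 0.06). In KO spleen cells over control IELs 6 of 16 rose and 7 fell, and in KO spleen cells over KO IELps 14 of 15 rose and 0 fell. The count of 0 was the same at an unadjusted p under 0.05, with DESeq2 and with limma.

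The type I interferon response genes did not move one way in the gut cells. In control IELs over control IELps 7 of 20 tested rose and 10 fell, with a median log2 fold change of -0.42, against 0.91 for the 9 tested GBP and IRG genes named at the start. Zbp1, a sensor of nucleic acid, rose there (0.51 ± 0.10, edgeR adjusted p = 8.41e-04), whereas Rtp4 fell (-0.56 ± 0.11, adjusted p = 7.61e-04). In KO IELps over control IELps 17 of 21 fell and 0 rose, with a median of -0.90. In KO spleen cells 13 of 20 rose and 5 fell over control IELs, and 18 of 21 rose and 0 fell over KO IELps. The counts of 0 were 0 also at an unadjusted p under 0.05, with DESeq2 and with limma.

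Of the 7 genes of the type I receptor and its ISGF3 complex, 2 fell and 0 rose in KO IELps over control IELps, Irf7 among them (-0.57 ± 0.09, edgeR adjusted p = 4.13e-04). In control IELs over control IELps 4 rose and 3 fell, in KO spleen cells over control IELs 4 rose and 2 fell, and in KO spleen cells over KO IELps 5 rose and 0 fell. Ifnar1, a receptor chain, averaged 193.3 ± 4.01 FPM in KO spleen cells and 97.4 ± 8.64 FPM in control IELs (SD, n = 3 each). The counts of 0 held at an unadjusted p under 0.05, with DESeq2 and with limma.

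Of 16 tested genes that act beside GBPs at vacuoles and inflammasomes, 1 fell and 0 rose in KO IELps over control IELps (0 also at an unadjusted p under 0.05, with DESeq2 and with limma). Both counts lay near the shares of all genes tested, 6.58% that fell and 6.48% that rose. The 1 that fell was Casp1, the inflammasome protease, with 2.22 ± 0.395 FPM in KO IELps and 4.42 ± 1.69 FPM in control IELps (-0.98 ± 0.31, edgeR adjusted p = 0.0465). Limma on log2(FPM + 1) did not call it. Genes of the ATG8 conjugation machinery such as Map1lc3b (0.09 ± 0.05, adjusted p = 0.259) and Gabarap (-0.04 ± 0.09, adjusted p = 0.825) did not pass. In control IELs over control IELps 11 rose and 1 fell, and Casp1 averaged 88.9 ± 17.7 FPM in control IELs. In KO spleen cells 11 fell and 0 rose over control IELs (0 at an unadjusted p under 0.05 and with DESeq2, 1 with limma), and 6 rose and 2 fell over KO IELps.

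**Figure D5:**
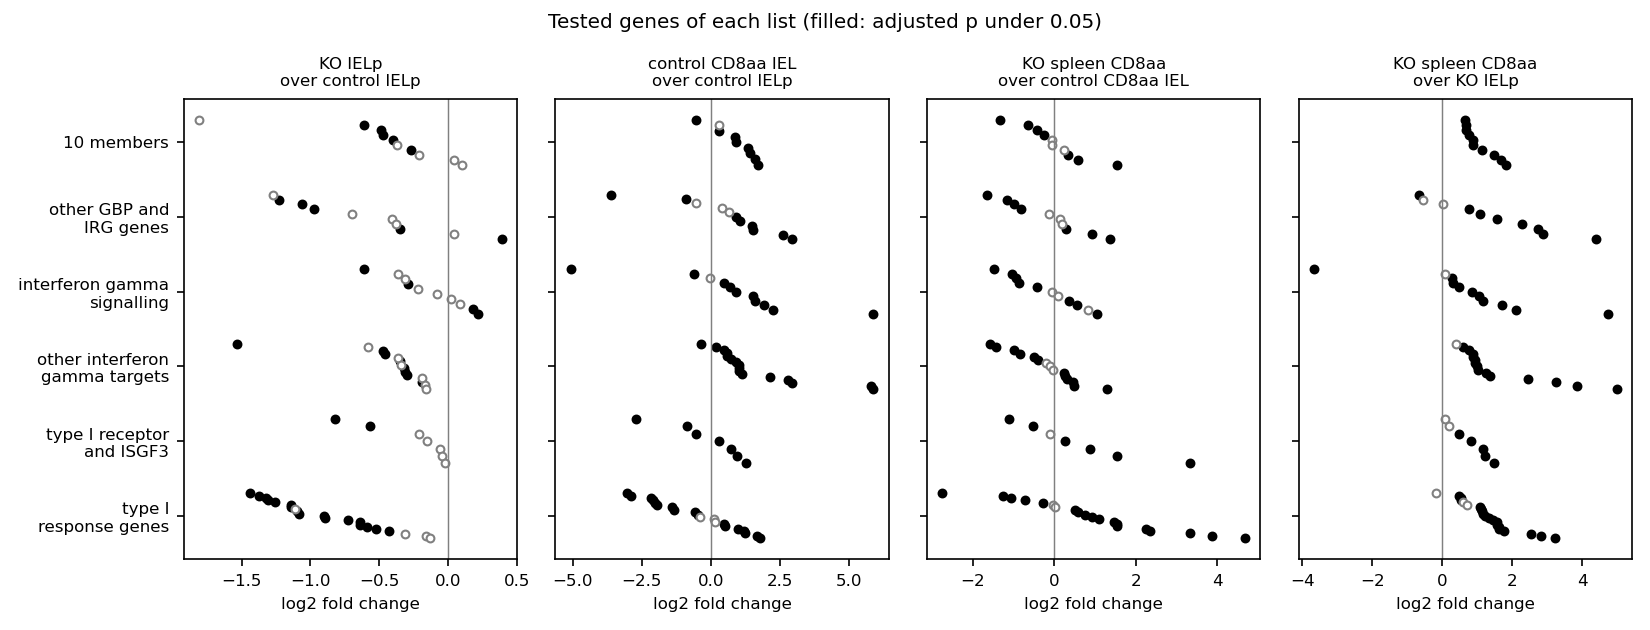
Log2 fold changes of the tested genes in 6 lists in each comparison, 1 point per gene, filled where the edgeR adjusted p was under 0.05. Genes at 0 in a group compared are left out, and each panel has its own axis range. In control IELs over control IELps the type I response genes lie on both sides of 0 (7 rose, 10 fell), whereas 7 of the 9 tested GBP and IRG genes of the top line rose.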

How the data were processed

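Sequencing read pairs of 76 bp from SMARTer Ultra Low Input and Nextera XT libraries were processed with bcl2fastq 2.17, Trimmomatic, STAR, HTSeq and DESeq2 on mm10, per the submitters' processing notes, which name no annotation or strand setting. The authors deposited raw counts (48663 gene rows; 5 summary rows left out) and FPM values, which the authors made as CPM of the gene counts and which give those counts back to within 8.1e-05. Depth was 13432598 to 19947734 gene counts per library. Reads aligned to several places were 13.1 to 18.8% of the deposited total, reads in no gene 41.5 to 45.5% and ambiguous reads 0.669 to 0.751%.

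Counts of each pair of groups (3 libraries each) were tested with edgeR 4.0.16 in R 4.3.3 (filterByExpr, TMM, quasi-likelihood, 2-sided, Benjamini-Hochberg over all genes tested, threshold 0.05); the interaction used all 12 libraries. SEs were computed from the fold change and its F statistic. Alternatives were another scaling, DESeq2 1.42.0, limma 3.58.1 on log2(FPM + 1) or log2(FPM + 0.1), no filter, a replicate block, 1 fit of all libraries and leaving out each library. Scripts were tested on simulated data. Promoters came from RefSeq (GRCm38.p6), gene models from GENCODE M21. Named were the 10 genes, their family, up to 4 genes per list by mean FPM, and 5 genes of like profile; exceptions are stated. Members and lists were chosen with earlier results of these data known. Some genes are not reported here.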

Additional observations from a re-analysis of the deposited data

Results flagged for a closer look

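For 12 genes, 5 of the 10 and 7 other family genes, the difference between CD8aa cells and their precursors was not the same in the KO arm (KO spleen cells over KO IELps) and the control arm (control IELs over control IELps), by the edgeR interaction test at an adjusted p under 0.05. Of all genes tested 24.2% were higher and 22.5% lower in the KO arm by this test. The count among the 10 genes lay near these shares. The difference between arms was -0.84 for Gbp2, -0.75 for Gbp4, 1.21 for Gbp6, 0.81 for Irgm1 and 3.36 for Iigp1 on the log2 scale. Among other family genes it was -1.55 for Gbp8, 1.63 for Gbp10, 2.32 for Tgtp1, 1.20 for Tgtp2, 0.63 for Ifi47 and 1.44 for Gvin1. Irgc1 was called too, but no value is given for it, since it had 0 counts in all KO IELp libraries. Genotype and tissue of the CD8aa cells differ together between the arms, so their parts cannot be told apart. Gbp6, Gbp10, Tgtp1, Tgtp2 and Gvin1 share most of their sequence windows with another gene, and Iigp1 rests on 2 to 43 counts per library.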

How the results depend on the processing

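Counts of called genes among the 10 kept within 1.5 times their main values in every alternative run, with this exception: in control IELs over control IELps 2 genes fell instead of 1 with no filter on low counts and with 1 fit of all 12 libraries, where Iigp1 was also tested, and likewise without replicate 3 of control IELs or of control IELps. With 1 library left out, 4 to 7 genes fell in KO IELps over control IELps and 0 rose; 7 to 8 rose and 1 to 2 fell in control IELs over control IELps; 2 to 3 rose and 3 to 4 fell in KO spleen cells over control IELs; 9 to 10 rose and 0 fell over KO IELps; and the interaction gave 2 to 4 higher and 2 lower.

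Values that changed sign were not called in either setting, and the cause was not tested. They were Gbp3 in KO IELps over control IELps (-0.13 to 0.27 with 1 library left out, lowest without control IELp replicate 3), Gbp5 in KO spleen cells over control IELs (0.08 with limma at both pseudocounts, -0.17 to 0.11 with 1 library left out), Igtp there (0.07 with limma at both pseudocounts, -0.14 to 0.07 with 1 library left out), and in the interaction Gbp3 (-0.04 to 0.36 with 1 library left out, lowest without control IELp replicate 1) and Gbp9 (0.11 with limma at both pseudocounts, -0.11 to 0.05 with 1 library left out). Limma on unscaled FPM moved the median of all genes by -0.2, 0.11, -0.1 and 0.11 in control IELs over control IELps, KO spleen cells over control IELs, KO spleen cells over KO IELps and the interaction, and the share of calls that were higher was 34.7%, 59.45%, 35.7% and 61.45%, against 49.2%, 49.92%, 50.3% and 51.8% with edgeR.

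The main tests did not pair libraries by replicate number. Deviations of same-numbered libraries correlated weakly, between -0.03 and 0.06. With a replicate block the counts were the same as without it, 5 lower in KO IELps over control IELps, 7 higher and 1 lower in control IELs over control IELps, 3 higher and 4 lower in KO spleen cells over control IELs, and 10 higher over KO IELps. With the block, 1 instead of 2 interferon gamma signalling genes 0 instead of 1 vacuole and inflammasome gene, 7 instead of 8 other interferon gamma targets and 16 instead of 17 type I response genes fell in KO IELps over control IELps. All 6 libraries correlated best with their own number in control IELs over control IELps and in KO spleen cells over KO IELps, a hint of pairing from the data only. The number was 0 of 6 in KO IELps over control IELps and 1 of 6 in KO spleen cells over control IELs. Depth limits Iigp1, whose calls were lost with DESeq2 in both comparisons that called it higher (adjusted p = 0.125 and 0.126).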
